A study of Mus musculus with 12 samples.

Results

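The Prss and Tmprss genes carry names given mostly to trypsin-like serine proteases and their inactive relatives. Members were all genes of the deposited transcript table whose symbol starts with Prss or Tmprss followed by a digit, with the reads of every transcript that matched the gene (class =) or shared splice junctions with it (class j) summed over the gene. The rule found 55 genes, 38 Prss and 17 Tmprss, among 31774 genes and assembled loci, and they were represented by 100 of 71967 transcripts. No measured level entered the rule itself, although members were chosen with earlier results of these data known.

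Testicular RNA was sequenced from 12 male C57BL/6 mice, an inbred laboratory strain, with 1 library per mouse and 3 mice at each of 3, 6, 12 and 18 months of age (3M, 6M, 12M and 18M). The question was which testicular transcripts change as mice age. The labels call all 12 samples wild type (WT) and name no treatment, and whether mice of an age were littermates is not known. Ribosomal RNA was removed from total RNA, the libraries did not keep the strand, and the deposited counts summed to between 50924104 and 71803379 reads a library.

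Trypsin-like serine proteases cut proteins with a catalytic triad of histidine, aspartate and serine, and most are made as inactive zymogens that a first cut activates. In the testis many are expressed in developing sperm cells, where they are stored in the acrosome, anchored in the sperm membrane, or act in the maturation of sperm surface proteins such as ADAM3 that sperm need to pass into the oviduct. Several relatives have lost a triad residue and are called pseudoproteases. The Tmprss proteins are membrane-bound, with the protease domain outside the cell, and are best known from epithelia, liver and gut.

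The tissue label was checked on cell type markers. The 8 spermatid markers summed to between 13383 and 19609 CPM (reads scaled to a common library size) in a library, the 7 spermatocyte markers to between 1015 and 1103 CPM and the 7 Sertoli cell markers to between 119 and 159 CPM. Markers of epididymal epithelium, the duct that adjoins the testis, summed to at most 0.368 CPM, with Adam7 and Lcn5 at 0 in every library. Mast cell markers summed to at most 0.511 CPM, with Cma1, Mcpt4 and Tpsb2 at 0. In whole tissue, fewer cells of a type and less RNA in each cell cannot be told apart.

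Whether a member keeps the codons of the active site was read from its coding sequence in GENCODE vM21 (GRCm38, the same build as mm10). Each member's coding sequence was translated and aligned with that of Prss21, and a stretch of 9 codons around the position of the catalytic serine was taken. Of 51 members that aligned there, 50 had an intron inside the stretch, so the genomic span given with a sequence includes an intron. The sequences below run 5′ to 3′ on the coding strand, with the codon at the serine position in capitals. They are shown because the members with the most reads differ at this codon. In the upper 5 lines the capitals encode serine within a run of glycine, aspartate, serine, glycine and glycine codons, which marks active enzymes of this family.

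Prss21, chr17:23872520-23872815, + strand: tgctttggtgacTCGggaggacccttg
Prss39, chr1:34502191-34502644, + strand: tgccgaggagacTCTgggggccccctg
Prss55, chr14:64075774-64077086, - strand: tgccagggtgacAGTgggggaccgctt
Prss42, chr9:110800966-110803015, + strand: tgccagggagatTCTggaggcccgatg
Tmprss12, chr15:100289408-100292530, + strand: tgcaggggtgacAGCgggggaccacta
Prss46, chr9:110851473-110856020, + strand: tgtcaggacaccTCCggaagctctctg
Prss43, chr9:110829540-110830802, + strand: tgttggggagatTCTgggaaccccctt
Prss51, chr14:64097189-64097387, + strand: tgccagggagacAGCggggcacccatg
Prss54, chr8:95559802-95564355, - strand: tgcctgggggaaCCAggaagccctatg
Prss58, chr6:40895491-40895600, - strand: tgcaaggaagtcACGgctgccccagca
Prss45, chr9:110840545-110840865, + strand: tgctatggagacCCCggggggccattg
Prss50, chr9:110863891-110864301, + strand: tgctatgagataACTggcgagcccctg

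Prss46, Prss43 and Prss51 kept a serine codon, but the rest of the run differed at 1 codon in Prss43 and Prss51 and at 3 in Prss46. Prss54 and Prss45 had a proline codon at the position, and Prss58 and Prss50 a threonine codon. Prss37, Prss23 and Prss35 had no codon that aligned with it, but aligned at the catalytic histidine. Prss16 aligned with Prss21 at neither position, so the alignment does not say whether Prss16 has an active site. It is counted below among the members without the runs. Prss37 is a known pseudoprotease, and Prss50 is known as a testis protein with threonine in place of the catalytic serine.

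The share of members with an intact serine run differed by level of expression. It was present in 9 of the 18 members with a mean of 10 CPM or more (50.0%), in 8 of 10 members between 1 and 10 CPM (80.0%) and in 24 of 27 members under 1 CPM (88.9%), against 41 of all 55 (74.5%). The run around the catalytic histidine, searched as threonine or serine, alanine, alanine or glycine, histidine and cysteine, was present in 13 of the 18 (72.2%), in 10 of 10 and in 25 of 27 (92.6%). Both runs together were found in 7 of the 18, in 8 of the 10 and in 23 of the 27. The single codons were kept more often than the runs. By alignment, a serine codon stood at the serine position in 12 of the 18, 9 of the 10 and 26 of the 27. A histidine codon stood at the histidine position in 17 of the 18, 10 of the 10 and 26 of the 27. Prss55 and Prss52 had the serine run and the histidine codon, and only codons beside the histidine differed from the searched run. These are counts of annotated sequences, and neighboring genes of 1 cluster share ancestry, so no test was made. A run that is absent says only that these codons were not found, and activity was not measured.

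Expression ranged from 306 CPM to no reads. Of the 55 members, 28 had a mean of 1 CPM or more over the 12 libraries (22 Prss and 6 Tmprss), 25 of them in every library, and 23 had a mean of 1 FPKM or more (a level corrected for transcript length). The 18 members with 10 CPM or more took 96.9% of all reads of the members, and the leading 5 took 60%. A further 16 members lay between 0.1 and 1 CPM and 6 had reads below 0.1 CPM. Prss1, Prss3, Prss27, Prss29 and Prss30 had no reads in any library, with 3 reads taken as the most that a count of 0 allows in a library.

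**Figure D1:**
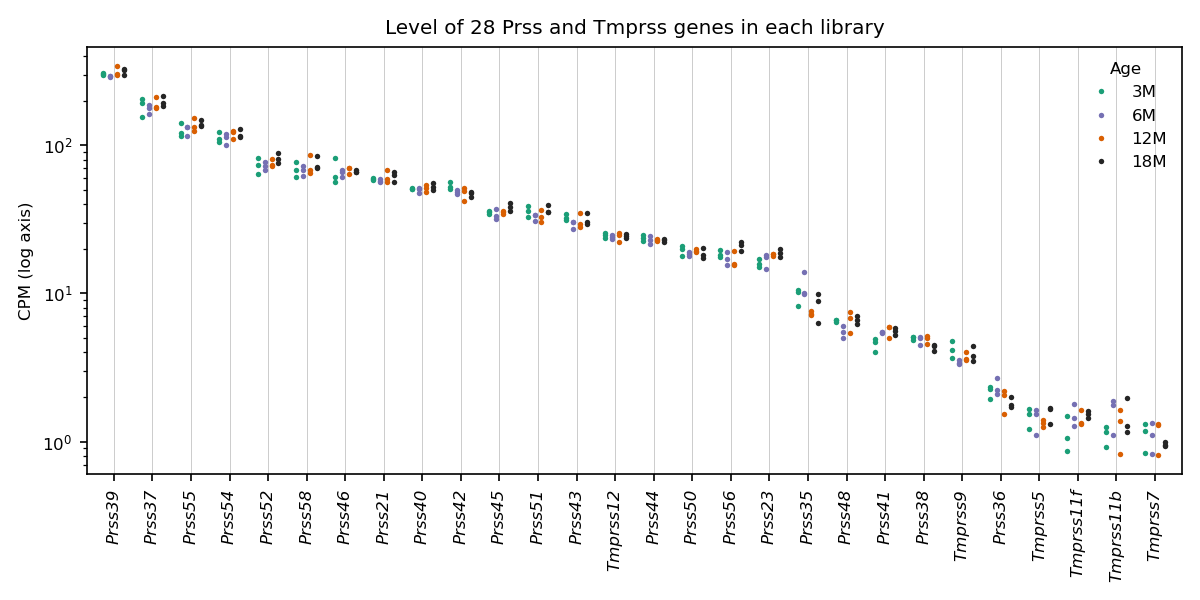
CPM on a log axis for the 28 Prss and Tmprss genes with a mean of 1 CPM or more, in order of that mean, with 1 point per library colored by age. Points of the 4 ages lie over each other in nearly every gene, and levels step down from the 18 genes at 10 CPM or more to those between 1 and 10 CPM.

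Acrosomal and other testis proteases were at the top. Prss39, an acrosomal trypsin-like protease, was the highest member at 306 CPM ± 15.6 (SD, n = 12 mice), with 308, 299 and 302 CPM in the 3M mice, 294, 287 and 295 in those of 6M, 304, 296 and 340 in those of 12M and 299, 326 and 322 in the 18M mice. The ranges at 3M and 18M overlap. Prss37, which is needed for ADAM3 processing and for sperm to enter the oviduct, had 187 CPM ± 18.0 (n = 12), from 155 in a 3M mouse to 215 in an 18M mouse. Prss55, which acts on the same step, had 133 CPM ± 11.3 (n = 12), with means of 126, 127, 137 and 139.5 CPM in order of age. Prss55 was 1 of 2 members at 1 CPM or more whose mean was higher at each later age, and its ranges at 3M and 18M overlap.

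The next members were Prss54 (116 CPM ± 8.33), Prss52 (75.8 ± 6.65), Prss58 (71.1 ± 7.83) and Prss46 (66.7 ± 6.20). Prss21, a protease anchored in the sperm membrane also called testisin, had 59.9 CPM ± 3.62 (n = 12). Prss40, an acrosomal relative and genomic neighbor of Prss39, had 51.2 CPM ± 2.17. Prss42, Prss43 and Prss44, testis serine proteases of 1 cluster on chromosome 9, had 48.9 ± 3.70, 31.0 ± 2.56 and 23.1 ± 0.913 CPM. Prss45 had 35.7 CPM ± 2.31, Prss51 34.6 ± 2.83 and Prss50 19.0 ± 1.13. Among these genes the spread over all 12 mice was small.

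Tmprss12 was the only Tmprss gene at 10 CPM or more, with 24.3 CPM ± 0.981 (n = 12). It too is required for sperm to pass into the oviduct. Its 12 values ran from 22.3 to 25.6 CPM, and the mean was 24.6 at 3M and 24.5 at 18M. Over the 18 members at 10 CPM or more, the coefficient of variation across the 12 mice had a median of 7.87% and ranged from 3.95% (Prss44) to 11.6% (Prss56). For all 10708 genes and loci at this level the median was 7.51%.

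Lower levels followed, in part for members known from other tissues. Prss56, known from the eye, had 18.4 CPM ± 2.13, and Prss23, a secreted protease known from the ovary and heart valves, had 17.4 ± 1.59. Prss35, a secreted relative known from the ovary, had 9.17 CPM ± 2.06, just under 10 CPM. Prss48 (6.30 CPM ± 0.717), Prss41 (5.29 ± 0.552), Prss38 (4.77 ± 0.338), Tmprss9 (3.81 ± 0.447) and Prss36 (2.07 ± 0.311) were detected in every library. Tmprss9 and Prss36 are polyserases, with several protease domains in 1 chain.

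Tmprss5 (1.45 CPM ± 0.199), Tmprss11f (1.40 ± 0.256), Tmprss11b (1.36 ± 0.371) and Tmprss7 (1.07 ± 0.208) were the members just inside 1 CPM. Prss53 (0.836 CPM ± 0.297), another polyserase, and Tmprss6 (0.767 ± 0.177), the liver protease that lowers hepcidin, were just outside it. Coverage along the exons, read from the assemblies, differed between these low members. The last exon of Tmprss6 held 49.7% of the covered bases in 22.1% of the length, with coverage in 10 of 18 exons, and that of Tmprss5 held 48.7% in 29.5%. Other low members lay the opposite way: the last exon of Tmprss11f held 54.5% of the bases in 68.9% of the length, that of Tmprss11b 28.2% in 49.9% and that of Prss53 23.2% in 33.1%.

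Because FPKM corrects for length, it was used to order levels between genes. Prss39 led with 230 FPKM ± 12.7 (n = 12), and its lowest library, 215 FPKM, was above the highest library of Prss37, 189 FPKM. Prss37 followed with 165 FPKM ± 16.2 and Prss55 with 118 ± 10.3, and Prss37 was higher than Prss55 in 12 of 12 libraries although the ranges touch (136 as the lowest for Prss37, 137 as the highest for Prss55). Further gaps with no overlap lay between Prss55 and Prss52 (69.4 FPKM), between Prss46 (49.7) and Prss40 (37.1), between Prss42 (25.7) and Prss43 (12.6), between Prss35 (3.14) and Tmprss9 (1.03) and between Tmprss9 and Tmprss5 (0.657). Other neighbors down to Tmprss5 overlapped in range: Prss43, Prss50, Prss44 and Tmprss12 all lay between 11.3 and 12.6 FPKM on average. Prss54 fell from place 4 by CPM to place 9 by FPKM (35.6 FPKM), with most of its reads placed on long assembled transcripts.

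Many of the highly expressed members lay in genomic clusters. On chromosome 9, Prss42, Prss44, Prss43, Prss45, Prss46 and Prss50 lie on the + strand within 67.4 kb (chr9:110797279-110864628, mm10), all 6 had 10 CPM or more, and they summed to 224 CPM. On chromosome 14, Prss55, Prss51 and Prss52 lie within 38.3 kb (chr14:64075443-64113751), all 3 had 10 CPM or more, and they summed to 243 CPM. Prss39 and Prss40, 62.5 kb from end to end on chromosome 1 (chr1:34498430-34560943), summed to 357 CPM. These 11 genes were among the 18 members at 10 CPM or more.

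Other clusters held few or no reads. Of 7 Prss genes within 213 kb on chromosome 17 (chr17:23833361-24045949), only Prss21 had 10 CPM or more and only Prss41 besides had 1 CPM or more, while Prss33, Prss32, Prss22, Prss27 and Prss30 were lower or at 0. All 7 Tmprss11 genes lie within 514 kb on chromosome 5 (chr5:86231481-86745807), none had 10 CPM or more, and together they had 3.74 CPM. The trypsinogen genes Prss1, Prss2 and Prss3 on chromosome 6, which encode digestive enzymes of the pancreas, summed to 0.0368 CPM, with Prss2 at no more than 12 reads in a library. Prss34, Prss28 and Prss29 on chromosome 17 summed to 0.00622 CPM. Markers of pancreatic acinar cells summed to between 1.61 and 2.72 CPM.

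The members were then compared between ages. Summed over all 55, the mean level in order of age was 1347 CPM ± 45.6, 1307 ± 34.1, 1379 ± 72.0 and 1411 ± 50.9 (SD, n = 3 each). The values were 1394, 1343 and 1303 CPM at 3M and 1373, 1391 and 1469 CPM at 18M, so the ages overlap. The 18M mean was 1.05 times the 3M mean. The SDs of single mice at both ages, carried into this ratio, gave 0.0518, which is not a standard error of the ratio of means.

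By edgeR, no member was called in any comparison. With edgeR's quasi-likelihood test, an adjusted p of 0.05 or less and Benjamini-Hochberg adjustment over all genes and loci, 0 of the 41 members that passed the filter on low counts were called in the slope of log2 level on age, where 0.168% of all 25526 genes and loci were called. At an unadjusted p of 0.05 or less, 4 members passed against 15.2% of all. Between 3M and 18M, 0 of 38 members were called (background 0.0642%), and 4 passed unadjusted against 12.0% of all. With DESeq2 as the test, 0 members were called in either comparison, where it called 1.87% of all genes and loci in the slope and 1.02% between 3M and 18M. The 14 members left out of the slope had too few reads.

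Steps between neighboring ages gave the same counts by edgeR. Between 3M and 6M 0 of 39 members were called (background 0.0684%) and 0 passed unadjusted (3.9% of all); between 6M and 12M 0 of 38 were called (0.0402%) and 2 passed unadjusted (7.5%). From 12M to 18M, 0 of 38 were called by edgeR (0.02%) and 2 passed unadjusted (3.51%). The test for any difference among the 4 ages by edgeR called 0 of 41 (0.0784%), with 5 unadjusted (9.0%). DESeq2 called 1 member, Prss35, between 6M and 12M (background 0.436%). It called 0 members between 3M and 6M (0.324%), between 12M and 18M (0.208%) and among the 4 ages (1.24%).

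For the well-expressed members the intervals were narrow. All 18 members at 10 CPM or more had estimated log2 changes between 3M and 18M from -0.17 to 0.24, and their 95% intervals lay between -0.32 and 0.44, that is, between 0.802-fold and 1.35-fold. No interval of these 18 reached a log2 change of 1 in either direction. Among the 28 members at 1 CPM or more this held for 27, and the interval of Tmprss11b ran from -0.18 to 1.01. Prss39, the highest member, had a log2 change of 0.065 (SE 0.046, interval -0.045 to 0.17, adjusted p = 0.592 by edgeR), and Tmprss12 one of -0.0043 (SE 0.060, interval -0.15 to 0.14).

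**Figure D2:**
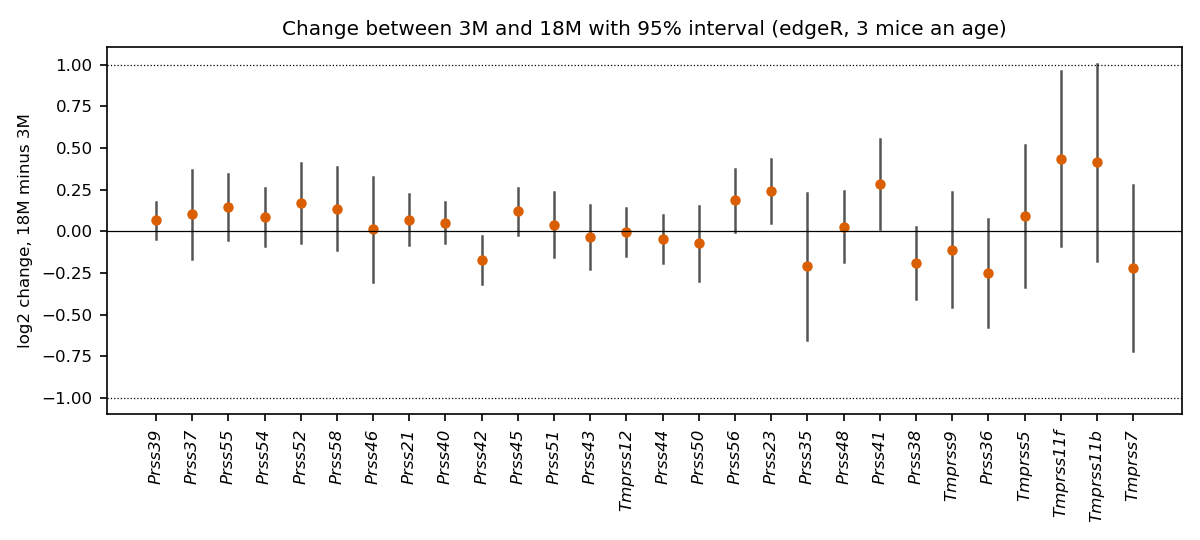
Estimated log2 change from 3M to 18M (points) with 95% intervals (lines) for the 28 genes with a mean of 1 CPM or more, in order of mean CPM from left to right; dotted lines mark a change of 1. Intervals are narrow and near 0 on the left and widen on the right, where Tmprss11f and Tmprss11b reach estimates of 0.44 and 0.41.

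Prss23 had the smallest p in both tests. Its level was 17.0, 15.7 and 15.01 CPM in the 3M mice, 14.6, 18.2 and 17.6 in those of 6M, 17.9, 18.4 and 18.5 in those of 12M and 18.7, 17.7 and 19.9 in the 18M mice. The 3 mice at 18M were all above the 3 at 3M, and the mean was higher at each later age. The change between 3M and 18M was 0.24 on the log2 scale (SE 0.081, 1.18-fold, unadjusted p = 0.0215, adjusted p = 0.367, edgeR), and the slope was 0.016 per month (SE 0.0051, unadjusted p = 0.00887, adjusted p = 0.203). Exons of the gene overlap those of Prss23os, on the opposite strand, over 26.8% of their length, and the libraries do not separate the strands.

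Prss42, a testis serine protease, lay the other way. It had 52.0, 56.3 and 50.9 CPM at 3M and 47.8, 44.4 and 48.5 CPM at 18M, with means of 48.4 at 6M and 47.3 at 12M. All 3 mice at 18M were below those at 3M, and the mean was lower at each later age. The log2 change was -0.17 (SE 0.061, 0.887-fold, unadjusted p = 0.0261, adjusted p = 0.377, edgeR) and the slope -0.010 per month (SE 0.0046, adjusted p = 0.325).

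Prss41, which lies close to Prss21 on chromosome 17, had 4.04, 4.95 and 4.71 CPM at 3M and 5.21, 5.82 and 5.59 CPM at 18M, with no overlap, and 5.46 and 5.61 CPM on average at 6M and 12M. All mice at 6M also lay above those at 3M, but this step was not called (log2 change 0.25, SE 0.11, unadjusted p = 0.0579, adjusted p = 0.991, edgeR). Its log2 change between 3M and 18M was 0.28 (SE 0.11, adjusted p = 0.408, edgeR). On class = transcripts alone, which leave out 71.1% of the reads, it was 0.64 (adjusted p = 0.681).

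Prss56 had 17.5, 19.6 and 18.1 CPM in the 3M mice, 15.5, 19.1 and 17.1 in those of 6M, 15.9, 15.6 and 19.4 in those of 12M and 22.1, 19.3 and 21.1 in the 18M mice. The 18M mice were high, but one of them lay within the ranges of 3M and 12M. Its log2 change was 0.19 between 3M and 18M (SE 0.079, adjusted p = 0.42, edgeR) and 0.30 between 12M and 18M (SE 0.11, unadjusted p = 0.0266, adjusted p = 1). With reads of RefSeq transcripts alone, leaving out the assembled ones, the change between 3M and 18M was estimated as -4.49 (adjusted p = 0.622, edgeR). That transcript was given 55.9%, 17.5% and 0% of the gene's reads in the 3M mice and 0%, 3.13% and 0% in the 18M mice.

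**Figure D3:**
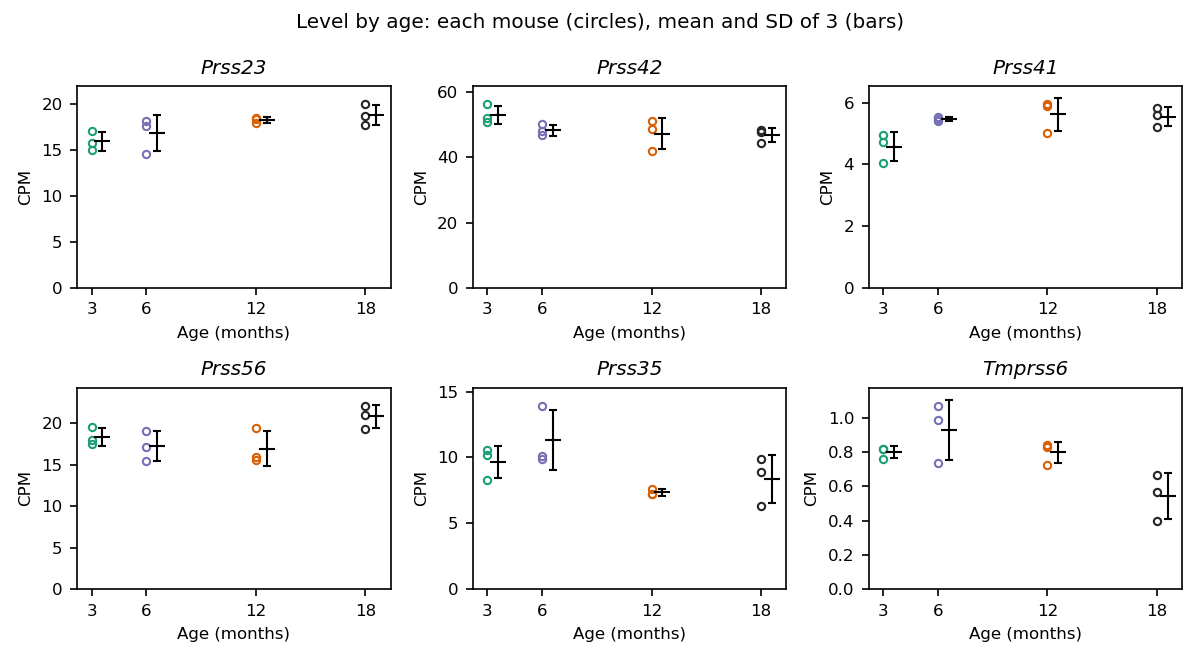
CPM from 0 for 6 genes against age in months, with a circle for each of the 3 mice of an age and the mean ± SD beside them. Prss23 and Prss41 lie higher and Prss42 lower at 18M than at 3M without overlap, Prss35 is lowest at 12M, and Tmprss6 is lowest at 18M.

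Prss35 had the largest step among the members at 5 CPM or more. It had 9.92, 10.15 and 13.9 CPM at 6M and 7.21, 7.21 and 7.63 CPM at 12M, against 10.2, 10.6 and 8.26 CPM at 3M and 9.85, 8.86 and 6.30 CPM at 18M. The 3 mice at 12M were below all mice of 3M and 6M but not below those of 18M. The log2 change from 6M to 12M was -0.63 (SE 0.15, unadjusted p = 0.00407, adjusted p = 0.645, edgeR), and with DESeq2 it was -0.62 with an adjusted p of 0.0319. Without the third 6M mouse it was -0.45 (edgeR). That mouse also had the highest summed level of Leydig cell markers, 1223 CPM, and of Sertoli cell markers, 159 CPM, and the part of these cells in its Prss35 level was not tested.

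Tmprss6 had 0.820, 0.757 and 0.817 CPM at 3M and 0.565, 0.397 and 0.667 CPM at 18M, from 43, 43 and 47 and from 32, 21 and 48 reads. The mice at 18M were all below those at 3M, and the slope was -0.040 per month (SE 0.015, unadjusted p = 0.0213, adjusted p = 0.256, edgeR). Without the second 18M library, which had the 21 reads, it was -0.027 per month (adjusted p = 0.477). Prss36 had a slope of -0.022 per month (SE 0.0096, adjusted p = 0.31), with means of 2.18 CPM at 3M and 1.83 at 18M. Prss52 had a slope of 0.011 per month (SE 0.0053, adjusted p = 0.331), with 73.0 CPM at 3M and 81.8 at 18M. Prss53 had 18, 39 and 37 reads at 3M and 74, 59 and 48 at 18M, a log2 change of 0.88 (SE 0.36, adjusted p = 0.414, edgeR). Exons of Prss53 overlap those of Gm21974 on the same strand over 64.6% and those of Zfp646 on the opposite strand over 21.8% of their length, so its reads cannot be assigned with certainty.

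At very low counts, 2 Tmprss genes had small unadjusted p-values in a step. Tmprss15, the enteropeptidase that activates trypsinogen in the gut, had 2, 0 and 5 reads at 12M and 24, 17 and 21 reads at 18M (unadjusted p = 0.0037, adjusted p = 1, edgeR), with 19, 3 and 11 reads at 3M. Tmprss11g had 3, 2 and 6 reads at 6M and 15, 16 and 13 at 12M (unadjusted p = 0.0086, adjusted p = 0.656, edgeR). Neither step continued in a steady course over the 4 ages.

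Counted without a test, 2 of the 28 members at 1 CPM or more had all 18M mice above all 3M mice (Prss23 and Prss41), against 9.63% of all 20449 genes and loci at this level. A further 2 had all 18M mice below (Prss38 and Prss42), against 11.5% of all. Prss38 had 5.09, 4.84 and 5.06 CPM at 3M and 4.52, 4.12 and 4.45 at 18M (log2 change -0.19, SE 0.091, adjusted p = 0.451, edgeR). Means were higher at each later age in 2 members (Prss23 and Prss55), against 6.8% of all, and lower at each later age in 2 (Prss42 and Prss44), against 7.94%. These shares were close to or below those over all genes.

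By group, the 18 sperm, acrosome and testis proteases, Tmprss12 among them, all passed the filter on low counts, and 13 of 18 had a positive slope with a median of 0.0048 per month, where the median of all genes was near 0 (4.83e-05). By edgeR 0 were called and 1 passed unadjusted, and DESeq2 called 0. Their summed level was between 1237 and 1327 CPM at 3M and between 1298 and 1398 CPM at 18M. Of the type II transmembrane proteases, also with Tmprss12, 14 of 17 genes in the table were tested, 7 had a positive slope, and 0 were called by edgeR (1 unadjusted) or DESeq2. Of 11 epithelial and tryptase-like Prss genes 5 were tested and 0 called by edgeR (1 unadjusted) or DESeq2, and of 7 other secreted or tissue proteases 5 were tested with the same counts. The 3 trypsinogens had too few reads for a test.

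Other genes around these proteases were read from lists that the members do not belong to. Of 19 serine proteases of other names, acrosin among them, 11 were tested in the slope: 0 were called by edgeR, 1 passed unadjusted, and DESeq2 called 1, Htra1, which was lower with age. Of 19 acrosomal partners and inhibitors 16 were tested, 14 had a positive slope (median 0.0092 per month), 0 were called by edgeR and 5 passed unadjusted. DESeq2 called 4 of these, against 1.87% of all genes and loci, all higher with age: Acrv1, Spaca1, Spaca3 and Spaca4, all of them proteins of the acrosome. Acrv1 is also 1 of the 8 spermatid markers. All 16 genes of ADAM3 maturation and sperm migration were tested, 0 were called by edgeR (3 unadjusted) or DESeq2. Among marker lists, 2 of 6 Leydig cell markers were called in the slope by edgeR: the steroid synthesis enzymes Cyp17a1, from 152 CPM ± 32.5 at 3M to 55.6 ± 7.0 at 18M (n = 3, adjusted p = 0.000133), and Cyp11a1, from 67.8 ± 13.2 to 23.2 ± 8.80 CPM (adjusted p = 0.00627), both lower with age. DESeq2 called 4 of the 6, Lhcgr and Star besides these, all lower with age. Of the 6 Leydig markers, 5 passed unadjusted by edgeR and 1 had a positive slope. The 8 spermatid markers all had positive slopes, with 0 called by edgeR, 4 unadjusted and 2 (Acrv1 and Tssk6) called by DESeq2. No spermatocyte, spermatogonium, Sertoli, peritubular myoid or macrophage marker was called in the slope by edgeR, where 3 of the 30 passed unadjusted, or by DESeq2. Between 3M and 18M, edgeR called 0 markers of any of these lists, the Leydig and spermatid lists included. DESeq2 called the same 4 Leydig markers, lower at 18M, and the spermatid marker Tssk6, higher at 18M. Of the other lists it called 1 marker, the Sertoli marker Amh, lower at 18M.

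Within an age, many members had their highest or lowest value in the same mouse. Of the 18 members at 10 CPM or more, 12 were highest at 12M in the third mouse and 13 at 18M in the third mouse. At 3M, 12 were lowest in the third mouse. At 6M, 12 were highest in the second mouse and 11 lowest in the third. The same shares over all genes were not counted, so the pattern cannot be called particular to the members. Prss37 had 205, 194 and 155 CPM at 3M and Prss58 76.5, 68.5 and 61.2 CPM. Prss46 lay the opposite way, with 56.4, 61.5 and 81.6 CPM in the same mice, and Prss54 was lowest in the third mouse at both 12M and 18M.

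Spermatid markers followed part of this pattern. Their sum was 14924, 15077 and 19609 CPM at 12M and 14857, 16067 and 17592 CPM at 18M, highest in the same mice. These libraries were also the deepest of their ages, with 62179449 and 71803379 reads. The third libraries of 3M and 6M were the deepest of theirs too, with 57957440 and 55848835 reads, and most of the 18 members were lowest there. At 6M the spermatid sum was 13951, 14754 and 13383 CPM. It was highest in the second mouse, where 12 of the 18 members were highest, and lowest in the third, where 11 were lowest. The second 6M library was the shallowest of its age, with 50924104 reads. At 3M the sum was 15703, 14270 and 14719 CPM. It was highest in the first mouse, where 9 of the 18 members were highest, but lowest in the second, where 2 were lowest. The part of cell composition and depth in the members' pattern was not tested. Without the third library of 12M and of 18M, the 18M mean of the summed members was 1.03 times the 3M mean.

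**Figure D4:**
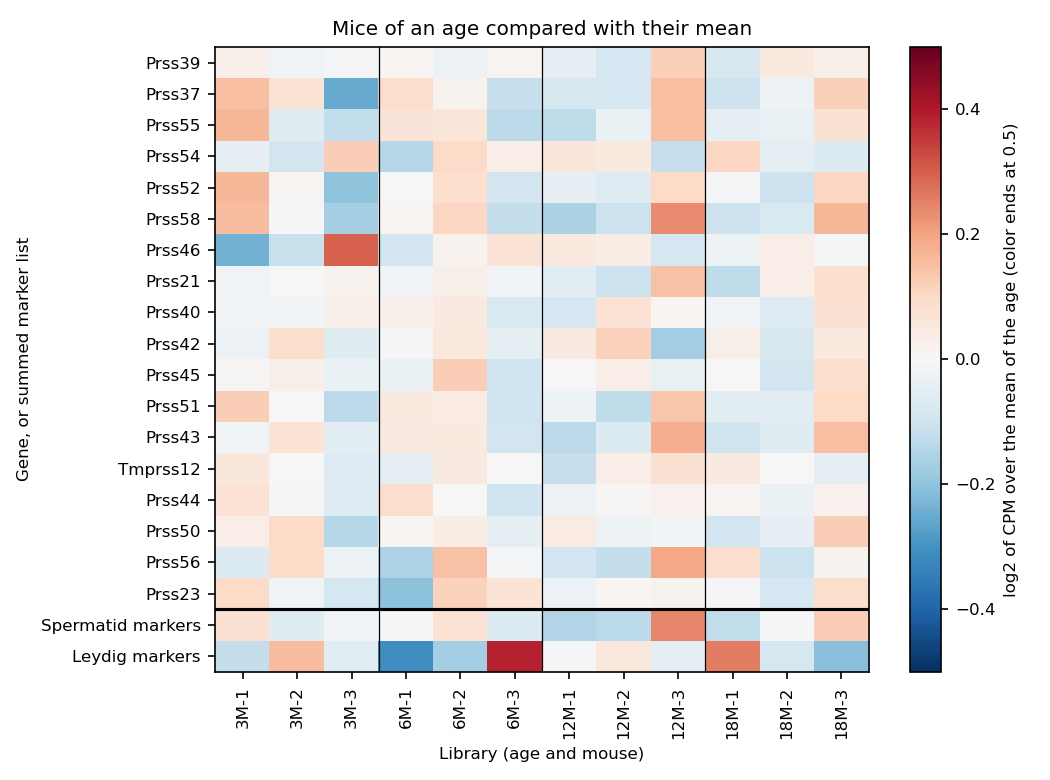
Each cell gives the log2 ratio of a library's CPM to the mean of the 3 mice of its age, for the 18 genes at 10 CPM or more and for the summed spermatid and Leydig cell markers below the line. The third 12M and 18M libraries are red in most genes and in the spermatid markers, Prss46 and Prss54 often take the other color, and Leydig markers are highest in the third 6M library.

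Transcripts within a gene were less steady than the genes. Class j transcripts, which share at least 1 junction with a RefSeq transcript but differ in structure, were assembled for 14 members, and in 5 of them (Prss41, Prss43, Prss51, Prss54 and Prss56) a class j transcript held the largest share of reads. In Prss43, 98.2% of reads were placed on class j transcripts, in Prss51 87.8%, in Prss56 86.5% and in Prss54 71.3%. Reads on shared exons are divided between transcripts by the assembler, so these shares are estimates.

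Prss54 had 10 transcripts. The leading one, of 4766 nt against 1590 nt for the main RefSeq transcript, took 35.1% to 51.3% of the gene's reads in 11 libraries and 6.85% in the first 6M library. In that library a RefSeq transcript of 1152 nt took 27.7%, against at most 0.0855% in the other 11. The gene's sum in the same library, 100.2 CPM, was the lowest of the 12 but close to the next, 106 CPM. In Prss56 the share of a single transcript ran from 0% to 100% between libraries of 1 age, while the gene sum stayed between 15.5 and 22.1 CPM. Prss40 was steadier, with 43.3% to 52.9% on its RefSeq transcript.

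**Figure D5:**
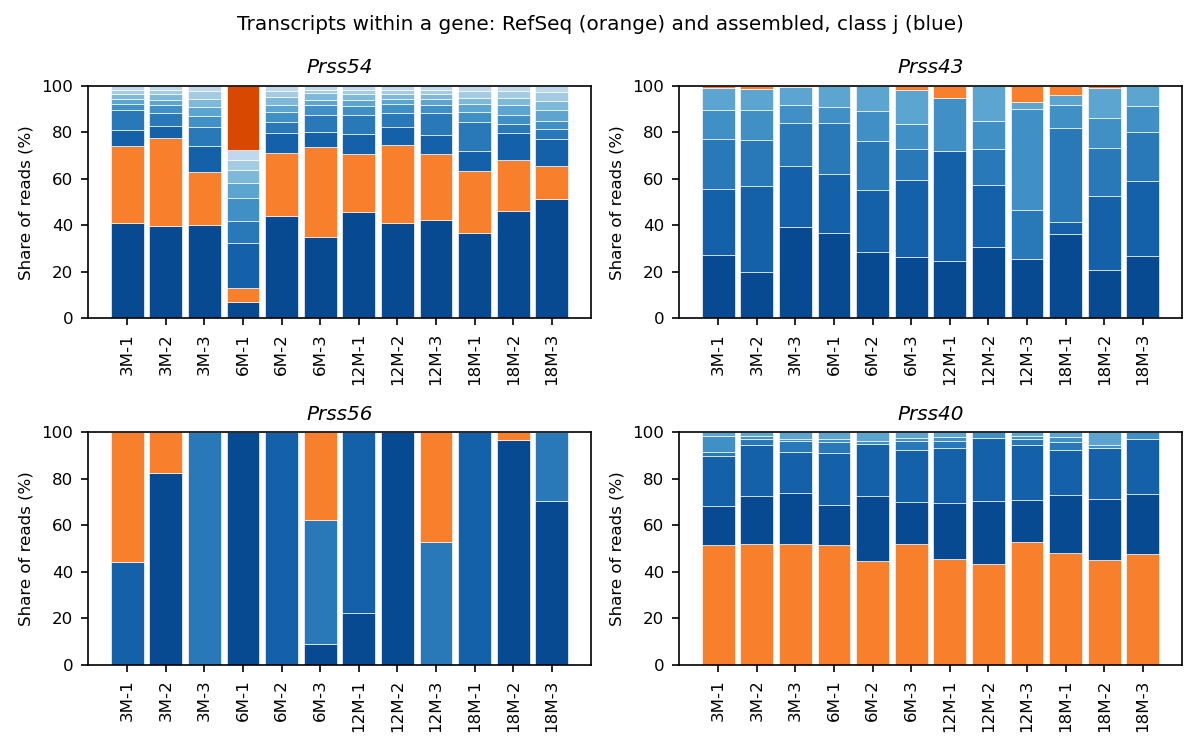
Stacked shares (percent of the gene's reads) of the transcripts of Prss54, Prss43, Prss56 and Prss40 in each of the 12 libraries, with RefSeq transcripts in orange and assembled class j transcripts in blue. Prss40 keeps its shares, the first 6M library stands apart in Prss54, and the transcript that holds the reads of Prss56 changes from library to library.

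For single transcripts, 0 of the 83 member transcripts tested were called in the slope by edgeR, where 0.0103% of all 58289 transcripts were called, and 4 passed unadjusted. The smallest p was that of an assembled transcript of Prss37, with a slope of 0.026 per month (SE 0.0080, adjusted p = 0.566). The RefSeq transcripts of Prss23 (slope 0.016, adjusted p = 0.644) and Prss55 (0.016, adjusted p = 0.678) had the same sign as their genes.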

How the data were processed

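Testicular RNA from 12 C57BL/6 mice was sequenced, 3 at each age. The authors aligned reads with HISAT2 to mm10 and assembled and quantified transcripts with StringTie 1.3.3b, per the file headers. The deposited estimated counts per transcript are whole numbers and were summed per gene over classes = and j, and the deposited FPKM values are scaled by the authors for length and mapped fragments. The assemblies gave exon coverage. CPM used TMM factors.

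The summed counts entered the quasi-likelihood test of edgeR 4.0.16, run in R 4.3.3 (TMM, filterByExpr, Benjamini-Hochberg over all genes and loci, adjusted p of 0.05 or less), in pairwise fits of both ages and in a slope on months over 12 libraries. DESeq2 1.42.0, limma 3.58.1 on FPKM, other scalings and filters, the mouse number as a block and each library left out were alternatives. Fits were tested on simulated data. Python 3.11.15 with pandas 2.3.3 and numpy 2.4.6 gave levels, Biopython 1.88 the alignments and matplotlib 3.10.9 the figures. Overlaps came from GENCODE vM21.

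Members and lists were chosen with earlier results of these data known. Named are the members at 1 CPM or more, the 5 with the smallest p in the slope and in 3M against 18M, and members called by any test. Prss35, Prss56, Tmprss15 and Tmprss11g in the steps, Prss38, and list genes called by DESeq2 alone were named after their values were seen. The p-values come from tests that set a change with age against the spread between mice, which is estimated in part from other genes.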

Additional observations from a re-analysis of the deposited data

Results flagged for a closer look

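Transcripts that carry a member's symbol but neither match nor share junctions with the gene were left out of the gene sums, and 5 of them held more than the 3 reads that a count of 0 allows. On the strand opposite to Prss39, an assembled transcript of 2226 nt (chr1:34473791-34499220, mm10) that reaches into the start of the gene had a mean of 662.75 reads a library, from 527 to 871. Within Prss23, 2 transcripts assigned to the opposite strand had means of 80.0 and 14.17 reads. A transcript just beyond the end of Prss42 had a mean of 132.67 reads (92 to 190), and a transcript inside an intron of Prss12 had 13.5. The libraries do not keep the strand, so the strand of these reads was not measured.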

How the results depend on the processing

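At the adjusted threshold, 0 members were called in every one of the 6 comparisons under other scalings, filters, class = transcripts alone, all 12 libraries in the fit, limma on FPKM, and with each library left out (0 to 0). At an unadjusted p the counts were 4 (slope), 4 (3M against 18M), 2 (6M against 12M), 2 (12M against 18M) and 5 (4 ages), and DESeq2 called 1 (6M against 12M). The replicate block also gave 0 members called in every comparison. Mouse numbers do not pair the libraries: deviations from the age means in same-number libraries correlated between -0.0711 and 0.0794, with 0 of 18 pairs above 0.1, and 3 of 12 libraries correlated best with their own number. Over all genes and loci, in the order slope, 3M against 18M, 3M against 6M, 6M against 12M, 12M against 18M and 4 ages, edgeR called 43, 16, 17, 10, 5 and 20, with the block 22, 0, 2, 2, 4 and 16, and DESeq2 called 561, 298, 95, 128, 61 and 371. Other scalings, filters, fits and limma gave 15 to 47, 12 to 25, 6 to 19, 7 to 22, 1 to 10 and 15 to 21. With a library left out, they were 13 to 114, 18 to 35, 21 to 42, 13 to 24, 8 to 23 and 15 to 43. The ratio of the summed level at 18M to that at 3M was 1.03 to 1.07 with a library left out, 1.05 by library size and 1.05 by FPKM, and 1.03 without the third library of 12M and of 18M, an alternative chosen after seeing the data. Of the alternative values for single genes, 238 kept their sign and side of the threshold and 1 changed sign: Prss56 between 3M and 18M on class = transcripts alone, -4.49. Prss35 passed the threshold between 6M and 12M with DESeq2, and the cause was not tested. Intervals were wide for genes near or below 1 CPM (Prss53 between 3M and 18M, 0.016 to 1.74). Adding 1 to FPKM before the log took the change of Prss53 from 0.88 to 0.20 and the slopes of Tmprss6 and Prss36 to -0.0068 and -0.0082.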
